A study of Mus musculus with 12 samples.

Results

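The 38 mouse collagen genes outside collagen IV were followed through embryoid bodies, suspended clumps of differentiating embryonic stem (ES) cells. They were taken as every probe set annotated to a single gene whose symbol is Col, a number, a and a number, without the collagen IV genes. This gave 40 probe sets for 38 of the 19938 genes on the array, and for Col6a5 and Col6a6, which had more than 1, the probe set with the highest mean was used. Of the 38 genes, 11 code for fibrillar collagens and 27 for other collagens. Of these 27, 9 belong to the fibril-associated collagens with interrupted triple helices (FACITs), 7 to the collagen VI family, 4 to the transmembrane collagens, 3 to the short-chain network collagens and 2 to the multiplexins, and the last 2 are Col7a1 and Col26a1. Genes with a mean level below the 20th percentile of all genes were not tested, which removed Col12a1 and left 37 collagens among 15950 tested genes.

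Collagens are triple helices of 3 alpha chains. The chains are hydroxylated and folded in the endoplasmic reticulum, trimmed outside the cell and, in the fibrillar types, packed and cross-linked into fibrils. Collagens I, III and V are the fibrillar collagens of fibroblasts and mesenchyme, collagens II and XI those of cartilage and notochord, and collagen XVIII is a basement membrane component. Mesenchyme appears in embryoid bodies as mesoderm differentiates, and fibroblasts can also be carried over from the feeder layer on which ES cells are kept.

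The 12 arrays share 1 parental ES line, A2lox, whose strain background is 129P2/OlaHsd. In the knockdown line, doxycycline (dox) at 0.5 µg/ml switched on microRNAs against the Geminin transcript. It was given from day 0, and embryoid bodies were collected on day 4 (3 arrays with dox and 3 without). In the overexpression line the same dose switched on Geminin from day 3. Replicates 1 and 2 of that line were collected on day 5 and replicate 3 on day 4, with 1 array with dox and 1 without in each. Before differentiation both lines were grown on irradiated mouse embryonic fibroblasts, which were then subtracted, and the differentiation medium held ascorbic acid, a cofactor of the collagen hydroxylases. The labels name 1 line for each direction and do not say whether replicates were separate cultures, so p-values reflect only how much these arrays varied, possibly for technical reasons. The targeted gene Gmnn differed with dox in the labelled direction in both lines. It lay at 9.63 to 9.74 with dox against 10.05 to 10.33 without in the knockdown line, and at 10.83 to 11.38 against 10.15 to 10.35 in the overexpression line (3 arrays each, log2 intensity). Neither Gmnn difference was called after adjustment over all genes (limma adjusted p = 0.965 and 0.922).

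Collagen levels are log2 intensities after quantile normalization, 1 value per array, and no depth is attached to an array value, so the number of arrays limits the precision. Probe sets differ in brightness, so levels are compared between arrays and not between genes. The 37 tested collagens had means from 6.68 to 10.39, with a median of 7.77 against 8.40 for all tested genes, and 32 of them lay in the dimmer part of the tested genes, below that median. As a reading of background, the 95th percentile of 1027 olfactory receptor genes was 7.11, and 31 of 37 collagens had a mean above it. Those below it were Col5a2, Col24a1, Col6a3, Col6a4, Col8a1 and Col10a1. In bulk samples, fewer cells of a type and less RNA per cell cannot be told apart.

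Most collagens varied little across the 12 arrays. The range from the lowest to the highest array was under 0.7 for 31 of 37 genes, with a median of 0.52 against 0.59 for all tested genes. Of all tested genes, 63.7% had a range under 0.686. Only Col1a1 and Col18a1 had a range over 1 on the log2 scale, at 1.45 and 1.75, which 13.8% of all tested genes reached. The other collagens with the largest ranges were Col6a2 (0.86), Col8a2 (0.83), Col9a1 (0.68), Col15a1 (0.65) and Col9a2 (0.65). Among fibrillar genes Col5a1 (0.84) and Col1a2 (0.74) followed Col1a1, and Col24a1 had the smallest range (0.26).

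**Figure D1:**
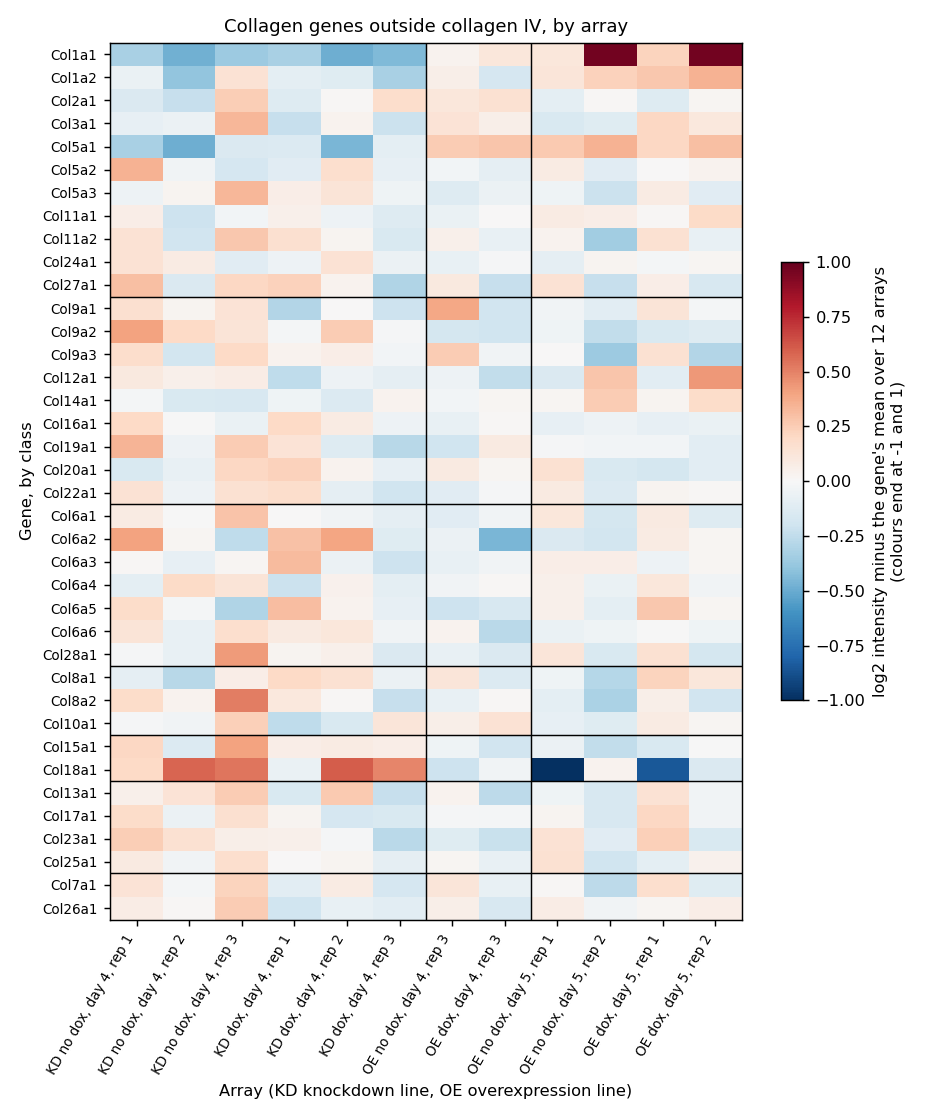
Level of each of the 38 collagen genes (rows, by class) in each of the 12 arrays (columns, by line, dox and day), as log2 intensity minus the gene's mean over the arrays. Col1a1 stands out in both day 5 replicate 2 arrays of the overexpression line, Col5a1 is lower in all 6 knockdown-line arrays, and Col18a1 is lowest in both day 5 replicate 1 arrays of the overexpression line.

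The collagen I chains come first among the fibrillar genes. Col1a1 codes for the alpha 1 chain, of which each collagen I molecule normally holds more copies than of the alpha 2 chain coded by Col1a2. Without dox in the knockdown line Col1a1 stood at 8.18, 8.02 and 8.14 in replicates 1, 2 and 3, and with dox at 8.18, 8.02 and 8.06. Overexpression-line levels were 8.62, 9.47 and 8.54 without dox and at 8.73, 9.46 and 8.62 with dox, where the third value of each is the day 4 array. Every overexpression-line array was thus above every knockdown-line array, and both replicate 2 arrays were far above the other 4 of their line, with dox and without it. Col1a2 in the knockdown line read 8.45, 8.12 and 8.65 without dox and 8.42, 8.39 and 8.19 with it. Overexpression-line levels of Col1a2 were 8.63, 8.74 and 8.57 without dox and 8.78, 8.86 and 8.35 with it. The Col1a2 lines overlapped, and its 4 day 5 arrays lay above both day 4 arrays of the overexpression line.

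Col3a1, which codes for the collagen III chain found with collagen I in soft tissue, read 7.92, 7.94 and 8.33 without dox and 7.77, 8.03 and 7.78 with dox in the knockdown line. Its overexpression-line levels were 7.85, 7.88 and 8.13 without dox and 8.21, 8.11 and 8.06 with dox. Dox and control arrays overlapped in both lines. Col5a1, which codes for the main chain of collagen V, a regulator of fibril diameter, read 7.76, 7.59 and 7.94 without dox and 7.95, 7.63 and 7.99 with dox in the knockdown line. Overexpression-line values were 8.35, 8.43 and 8.34 without dox and 8.29, 8.39 and 8.36 with dox. The 6 overexpression-line arrays spanned 8.29 to 8.43 and lay above the 6 knockdown-line arrays, which spanned 7.59 to 7.99.

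The partner chains of collagen V did not show that order, though the mean of Col5a2 (6.96) lay below the background reading of 7.11. Col5a2 read 7.31, 6.92 and 6.79 without dox and 6.85, 7.13 and 6.88 with dox in the knockdown line, and 7.04, 6.85 and 6.94 against 6.96, 6.99 and 6.87 in the overexpression line. Col5a3 read 7.43, 7.51 and 7.82 without dox and 7.55, 7.61 and 7.44 with dox in the knockdown line, and 7.44, 7.27 and 7.35 against 7.57, 7.37 and 7.43 in the overexpression line. For both genes the arrays of the lines overlapped, and Col5a3 was higher with dox in all 3 replicates of the overexpression line, as were 5 of 37 collagens (16.6% of all tested genes).

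The cartilage-type fibrillar genes had ranges of 0.40 (Col11a1), 0.48 (Col2a1) and 0.62 (Col11a2), against a median of 0.59 for all tested genes. Col2a1, which codes for the collagen II chain, read 8.24, 8.16 and 8.63 without dox and 8.25, 8.40 and 8.56 with dox in the knockdown line, and 8.29, 8.39 and 8.50 against 8.26, 8.41 and 8.54 in the overexpression line. Its highest values were those of replicate 3 in both lines, with dox and without. Col11a1, a collagen XI chain, read 7.28, 7.01 and 7.18 without dox and 7.27, 7.16 and 7.09 with dox in the knockdown line, and 7.30, 7.28 and 7.15 against 7.22, 7.40 and 7.22 in the overexpression line. Col11a2, another collagen XI chain, read 8.18, 7.84 and 8.30 against 8.19, 8.06 and 7.88 in the knockdown line, and 8.06, 7.68 and 8.08 against 8.18, 7.96 and 7.95 in the overexpression line. Lines and dox groups overlapped for all 3 genes.

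Col24a1 and Col27a1 code for the fibrillar collagens XXIV and XXVII. Col24a1 read 7.13, 7.07 and 6.88 without dox and 6.94, 7.13 and 6.93 with dox in the knockdown line, and 6.90, 7.01 and 6.91 against 6.97, 7.005 and 6.97 in the overexpression line. Col27a1 read 8.73, 8.28 and 8.63 against 8.66, 8.46 and 8.13 in the knockdown line, and 8.57, 8.19 and 8.53 against 8.49, 8.26 and 8.20 in the overexpression line. Neither separated lines, days or dox.

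Among the other collagens, Col18a1, whose product carries the endostatin fragment, varied most. It read 10.59, 10.98 and 10.93 without dox and 10.33, 11.002 and 10.89 with dox in the knockdown line. In the overexpression line it read 9.25, 10.43 and 10.18 without dox and 9.55, 10.25 and 10.36 with dox. The day 5 replicate 1 arrays were the lowest of all 12, with dox and without, and the lines overlapped only through the knockdown replicate 1 dox array. Col15a1, the other multiplexin, read 7.52, 7.17 and 7.71 against 7.38, 7.39 and 7.38 in the knockdown line, and 7.25, 7.06 and 7.26 against 7.16, 7.31 and 7.12 in the overexpression line, with overlap in both.

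Col9a1 and Col9a2 code for chains of collagen IX, a FACIT on the surface of cartilage fibrils. Col9a1 read 8.03, 7.90 and 8.01 without dox and 7.58, 7.87 and 7.66 with dox in the knockdown line, so that its 3 dox arrays lay below its 3 controls. In the overexpression line it read 7.84, 7.77 and 8.26 against 8.003, 7.86 and 7.68, with overlap. Col9a2 read 8.65, 8.45 and 8.37 against 8.23, 8.51 and 8.24 in the knockdown line, and 8.20, 8.002 and 8.07 against 8.09, 8.12 and 8.05 in the overexpression line. All 6 of its overexpression-line arrays lay below all 6 knockdown-line arrays.

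Col6a2, a chain of the beaded-filament collagen VI, read 8.84, 8.45 and 8.18 against 8.73, 8.83 and 8.31 in the knockdown line, and 8.28, 8.25 and 8.37 against 8.51, 8.45 and 7.97 in the overexpression line. Col8a2, a chain of the network collagen VIII, read 8.03, 7.88 and 8.35 against 7.95, 7.86 and 7.61 in the knockdown line, and 7.75, 7.53 and 7.77 against 7.91, 7.66 and 7.86 in the overexpression line. The widest gap of Col8a2 was between the replicate 3 arrays of the knockdown line. The 20 tested collagens not given array by array lay between 6.40 and 8.64, with ranges from 0.28 to 0.62. Col12a1, a FACIT chain below the filter, lay between 6.03 and 6.71. The second probe sets of Col6a5 and Col6a6 had means of 7.32 and 7.04, against 7.35 and 7.77 for those used.

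**Figure D2:**
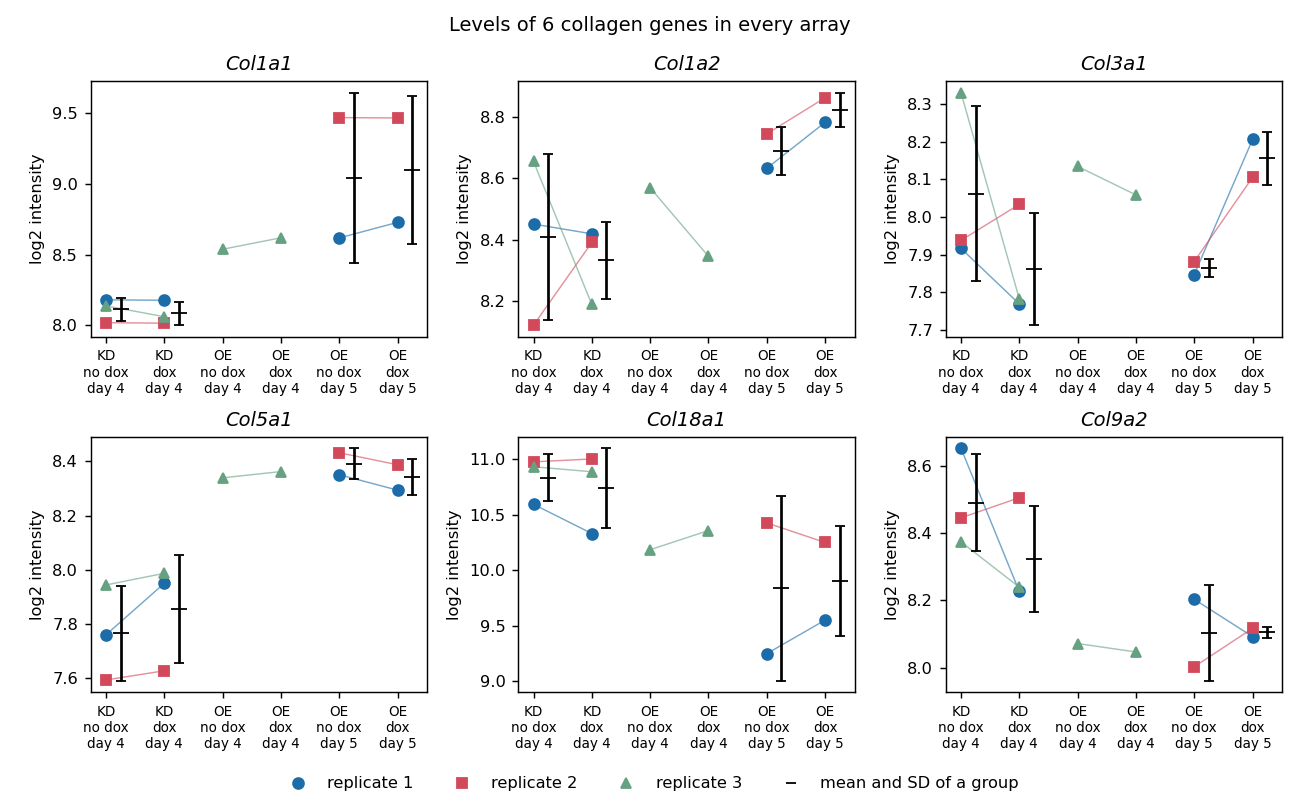
Log2 intensity of 6 collagen genes in every array, by line (KD knockdown, OE overexpression), dox and day, with lines joining arrays of equal replicate number and black bars for the mean and SD of groups with more than 1 array. Col1a1 and Col5a1 are higher in every overexpression-line array, Col9a2 is lower there, and Col1a1 and Col18a1 split the day 5 replicates.

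Upstream sequences from the RefSeq promoter table (GRCm38.p6) are shown for Col1a2, Col5a1 and Col18a1, chosen with their values known as genes that the day and line comparisons turn on. Each is the stretch from base 170 to base 51 before the outermost listed start, on the gene's strand, at chr6:4505448-4505567 (plus strand) for Col1a2, chr2:27886255-27886374 (plus strand) for Col5a1 and chr10:77166581-77166700 (minus strand) for Col18a1. Capitals mark 3 motifs searched on both strands, the CCAAT box with the letters CCAAT, the GC box with the letters GGGCGG and the TATA box with the letters TATAAA.
Col1a2: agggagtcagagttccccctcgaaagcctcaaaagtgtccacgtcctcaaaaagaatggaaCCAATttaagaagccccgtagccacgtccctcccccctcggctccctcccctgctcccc
Col5a1: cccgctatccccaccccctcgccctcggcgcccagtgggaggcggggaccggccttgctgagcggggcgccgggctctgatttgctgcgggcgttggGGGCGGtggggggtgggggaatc
Col18a1: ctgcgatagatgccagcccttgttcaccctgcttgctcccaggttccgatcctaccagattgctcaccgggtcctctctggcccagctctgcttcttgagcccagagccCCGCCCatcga
The Col1a2 stretch holds 1 CCAAT, and those of Col5a1 and Col18a1 hold 1 GGGCGG each, the latter on the opposite strand. Over the same window, CCAAT was found in 4 of 33 collagen promoters (30 genes had an entry) and in 20.4% of all 32841 promoters. GGGCGG was found in 15 of 33 against 20.5%, and TATAAA in 3 of 33 against 5%. A match describes these letters and not a binding site.

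Dox in the knockdown line, given from day 0 to lower Geminin, called no collagen gene (limma adjusted p under 0.05; 1 of 15950 genes was called, 0.00627%). Col26a1 alone among the 37 collagens had an unadjusted p under 0.05, against 3.76% of all tested genes. It stood 0.24 ± 0.10 lower (log2 ± SE; limma adjusted p = 0.965), and its 3 dox arrays were below its 3 controls, as were those of Col9a1 and the transmembrane collagen Col23a1, 3 of 37 against 3.25% of all tested genes. No collagen had every dox array above every control (4.97% of all tested genes). By direction, 27 of 37 collagens had a negative difference and 10 a positive one, while 52.7% of all tested genes had a positive one. The medians were -0.05 for the 11 fibrillar and -0.13 for the 26 other collagens against 0.01 for all tested genes. With the deposited values left unnormalized, 5 had a positive difference. Counts on unnormalized values, here and below, have no share of all tested genes on that scale beside them. In the same comparison 19 of 20 endoderm markers were lower (median -0.34) and 9 of 9 primitive streak markers higher (median 0.68), none called, and their part in the collagen count was not tested.

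Single collagen differences in that line were small. The largest negative ones were those of Col8a2 at -0.28 ± 0.14 and Col9a1 at -0.27 ± 0.14 (log2 ± SE; limma adjusted p = 0.965 each). The largest positive ones were those of Col8a1, another collagen VIII chain, at 0.20 ± 0.14 and Col6a2 at 0.14 ± 0.19. Col1a1 differed by -0.03 ± 0.22, Col1a2 by -0.08 ± 0.14, Col3a1 by -0.20 ± 0.13 and Col5a1 by 0.09 ± 0.12. The 95% interval of the Col1a1 difference ran from -0.51 to 0.45, so differences of either size lie within it. That interval uses a spread pooled over both lines. The SD of Col1a1 was 0.08 in both knockdown-line groups, and 0.60 without dox and 0.52 with it on day 5 of the overexpression line. Between knockdown-line arrays of equal replicate number, Col1a1 differed by -0.003, -0.003 and -0.08 in replicates 1, 2 and 3. The exact two-sided permutation p of the 17 genes given array by array was no lower than 0.1, the smallest that 3 arrays against 3 allow, and Col9a1 reached it.

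The replicate pairs of the knockdown line disagreed with each other. In replicate 1, 26 of 37 collagens were lower with dox (median -0.08), in replicate 2, 11 of 37 (median 0.06), and in replicate 3, 30 of 37 (median -0.26). In replicate 2 only 1 of 11 fibrillar genes was lower, with a fibrillar median of 0.16. Col3a1 differed by -0.15, 0.10 and -0.55 in replicates 1, 2 and 3, and Col8a2 by -0.08, -0.02 and -0.74. Lower in all 3 replicates were 10 of 37 collagens, against 12.2% of all tested genes. The control array of replicate 3 had the highest deposited median of the 12 arrays (182.2, against 148.6 for its dox partner), and of the tested genes below the median level 54.6% were lower with dox in that pair. The part of this array in the result was not tested. Without both replicate 3 arrays, 17 of 37 collagens had a positive difference, the fibrillar median was 0.07 and the other median -0.03.

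**Figure D3:**
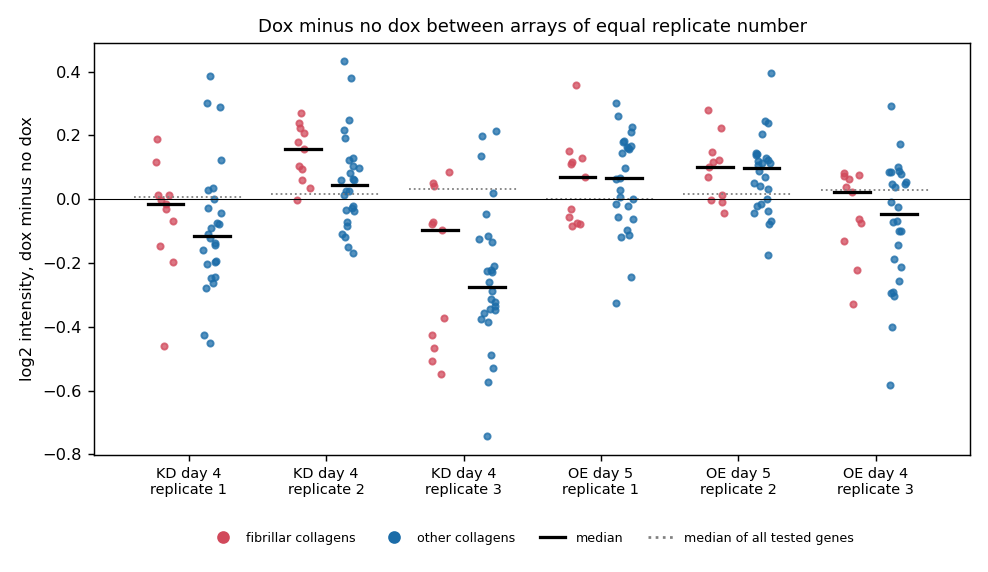
Log2 intensity with dox minus without, between arrays of equal replicate number, for each fibrillar (red) and other (blue) collagen gene, with medians as black bars and the median of all tested genes as a dotted line. The knockdown-line medians lie below 0 in replicates 1 and 3 and above it in replicate 2.

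Dox in the overexpression line, given from day 3 to raise Geminin, also called no collagen gene (limma adjusted p under 0.05; 1 of 15950 genes, 0.00627%). At an unadjusted p under 0.05 the count was 0 of 37, against 0.934% of all tested genes. For 23 collagens the difference was positive and for 14 negative (28 positive with the values left unnormalized). After normalization it was positive for 56.7% of all tested genes. The medians were 0.04 for fibrillar and 0.01 for other collagens against 0.01 for all tested genes. The largest differences were those of Col3a1 at 0.17 ± 0.13, Col8a1 at 0.13 ± 0.14, Col20a1, a FACIT, at -0.12 ± 0.13 and Col27a1 at -0.11 ± 0.17 (log2 ± SE; limma adjusted p = 1 each). Dox and control arrays overlapped for all 37 (1.94% of all tested genes had every dox array above every control and 1.84% every dox array below). Col1a1 differed by 0.06 ± 0.22 and Col5a1 by -0.03 ± 0.12. In replicates 1, 2 and 3 the collagens lower with dox numbered 15, 10 and 20 of 37, with medians of 0.07, 0.10 and -0.03. The exact permutation test cannot go below 0.167 in this line.

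The difference between the dox effects of the lines, knockdown minus overexpression, called 0 of 37 collagens and 0 of 15950 genes (0%; limma), and at an unadjusted p under 0.05 it was 0 collagens and 2.13% of all tested genes. It was negative for 27 collagens and positive for 10 (3 positive with the values left unnormalized). After normalization it was positive for 50.1% of all tested genes. The largest were those of Col8a2 at -0.41 ± 0.20, Col3a1 at -0.37 ± 0.19, Col20a1 at 0.18 ± 0.18 and Col6a2 at 0.12 ± 0.27 (log2 ± SE; limma adjusted p = 1 each). The 95% interval of the Col8a2 difference ran from -0.85 to 0.04. Lower with dox in every knockdown replicate and higher in every overexpression replicate were Col8a2, Col10a1 and Col6a4, 3 of 37 against 2.46% of all tested genes. Of these, Col10a1 and Col6a4 had means below the background reading of 7.11. The opposite pattern was seen in 0 of 37 (2.39% of all tested genes).

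**Figure D4:**
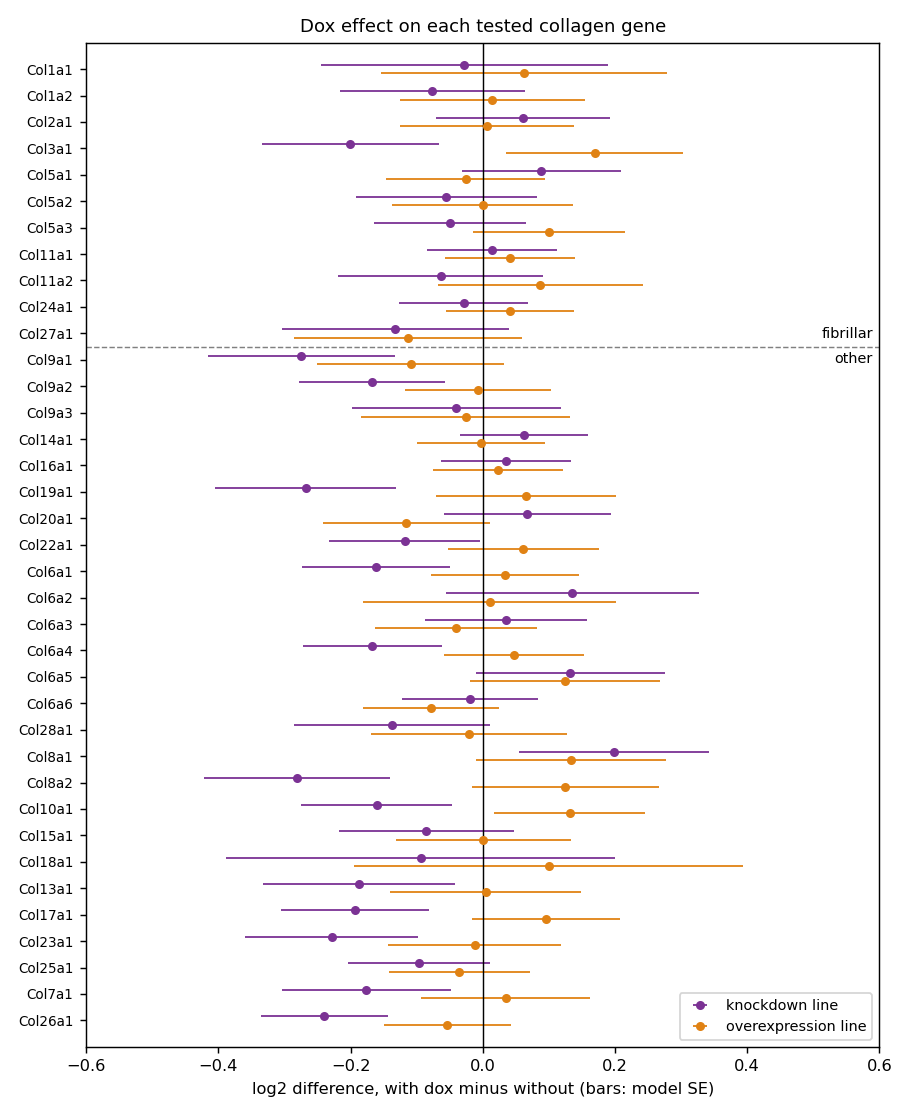
Log2 difference with dox minus without for each of the 37 tested collagen genes in the knockdown line (purple) and the overexpression line (orange), with the model's SE as bars and the fibrillar genes above the dashed line. Knockdown-line differences run from -0.28 to 0.20 and overexpression-line ones from -0.12 to 0.17, and none was called.

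Day 5 against day 4 could be compared in the overexpression line alone, where day 4 is replicate 3 and day 5 replicates 1 and 2, so day and replicate cannot be told apart. No collagen was called (limma adjusted p under 0.05; 89 of 15950 genes, 0.558%), and none had an unadjusted p under 0.05, against 14.2% of all tested genes. The collagen I chains had the largest positive differences, Col1a1 at 0.49 ± 0.23 (limma adjusted p = 0.371) and Col1a2 at 0.30 ± 0.15 (limma adjusted p = 0.397; log2 ± SE). The largest negative ones were those of Col18a1 at -0.40 ± 0.31 and Col9a3, a collagen IX chain, at -0.23 ± 0.17. For 26 collagens the difference was positive and for 11 negative (18 positive with the values left unnormalized). After normalization it was positive for 49.8% of all tested genes. The medians were 0.02 for fibrillar and 0.03 for other collagens against 0.00 for all tested genes. All 4 day 5 arrays lay above both day 4 arrays for Col1a2, Col11a1 and Col6a5 (15.4% of all tested genes), and below them for Col2a1 (15.1%). For Col11a1 the lowest day 5 array (7.223) and the highest day 4 array (7.221) nearly met.

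For Col1a1 and Col18a1 the gap between the day 5 replicates was wider than the fitted gap between the days. Col1a1 was higher in replicate 2 than in replicate 1 by 0.85 without dox and 0.74 with it, and Col18a1 by 1.18 and 0.70. Both replicate 2 arrays lay above both replicate 1 arrays for 7 of 37 collagens (34.5% of all tested genes) and below them for 13 (32.4%). Of those 13, 3 were fibrillar (Col5a3, Col11a2 and Col27a1), and Col9a3 among the others stood at -0.37 without dox and -0.44 with it (replicate 2 minus replicate 1).

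Between the lines, the fit compared their untreated day 4 levels, where the overexpression side rests on replicate 3. No collagen was called (limma adjusted p under 0.05; 49 of 15950 genes, 0.307%). Col5a1 was lower in the knockdown line by -0.60 ± 0.15 (limma adjusted p = 0.150), or 1.51-fold, and Col9a2 was higher by 0.43 ± 0.14 (limma adjusted p = 0.248). Both had an unadjusted p under 0.05, 2 of 37 against 11.6% of all tested genes. Col1a1 differed by -0.43 ± 0.27 and Col18a1 by 0.61 ± 0.36, the latter the largest positive value. Over both days, all 6 overexpression-line arrays lay above all 6 knockdown-line arrays for Col1a1 and Col5a1 (2 of 37; 3.15% of all tested genes) and below them for Col9a2 (1 of 37; 1.82%). On day 4 alone the same held for Col1a1 and Col5a1, both overexpression-line arrays above all 6 (8.11%), and for Col9a2 and Col5a3 both below all 6 (8.41%). For 27 collagens the knockdown line was higher and for 10 lower (32 higher with the values left unnormalized). After normalization it was higher for 53.1% of all tested genes. The medians were 0.05 for fibrillar and 0.15 for other collagens against 0.02 for all tested genes. With array weights in limma, Col5a1 (adjusted p = 0.00923) and Col9a2 (adjusted p = 0.0182) were called between the lines, and Col1a1 (adjusted p = 0.0216) between the days. Weights also lowered the adjusted p of listed genes outside the collagens, such as Snai1 (limma adjusted p = 0.000586 between the lines). The share of all tested genes called with weights is not given here, so these 3 calls have no background beside them.

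Genes that fold and modify collagen chains were mostly higher on day 5 than on day 4 of the overexpression line. The summed level of their list was 15760 and 15696 on day 4 of that line and 19919 to 20954 on day 5. In the knockdown line, on day 4, it ran from 15153 to 21912, and the replicate 2 control was highest. Of 20 tested genes of folding and modification, 17 were higher on day 5, with a median of 0.40 against 0.00 for all tested genes, and 10 had an unadjusted p under 0.05 (14.2% of all tested genes). Serpinh1, the collagen chaperone HSP47, was called and rose by 1.01 ± 0.17 (log2 ± SE; limma adjusted p = 0.0383). It read 10.14, 10.24, 10.20 and 10.27 in the 4 day 5 arrays (replicates 1 and 2 without dox, then with it) and 9.16 and 9.25 in the day 4 arrays without and with dox, with no overlap. That call was lost without any 1 of 8 of the 12 arrays (limma adjusted p up to 0.622). It was also lost with median centring in place of the quantile step, with no filter on low values, and without both day 5 replicate 2 arrays (limma adjusted p up to 0.150). The prolyl 4-hydroxylase subunit P4ha1 differed by 1.35 ± 0.48 (limma adjusted p = 0.228) and the foldase Fkbp14 by 1.17 ± 0.24 (limma adjusted p = 0.0624). In the knockdown line Serpinh1 differed with dox by -0.38 ± 0.16 (limma adjusted p = 0.965).

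The other collagen-related lists had no called gene. Of 12 genes of procollagen cleavage and cross-linking, 7 were higher on day 5, led by the C-proteinase Bmp1 at 0.65 ± 0.13 (limma adjusted p = 0.0665) and the transglutaminase Tgm2 at 0.55 ± 0.17. Between the lines the lysyl oxidase family member Loxl4 was at -1.02 ± 0.35 in the knockdown line (limma adjusted p = 0.297). Of 8 collagen receptors, 4 were higher on day 5, and the integrin subunit Itga1 stood at -0.44 ± 0.18. Of 8 collagenases and their inhibitors, 7 were higher on day 5, led by the inhibitors Timp2 at 0.56 ± 0.14 and Timp3 at 0.49 ± 0.18. Of 10 fibril-associated matrix genes, 7 were higher, led by Sparc, a collagen-binding matrix protein, at 0.81 ± 0.25, and the proteoglycan gene Bgn at 0.75 ± 0.35. Fibronectin, Fn1, was lower in the knockdown line by -0.89 ± 0.27 (limma adjusted p = 0.231).

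**Figure D5:**
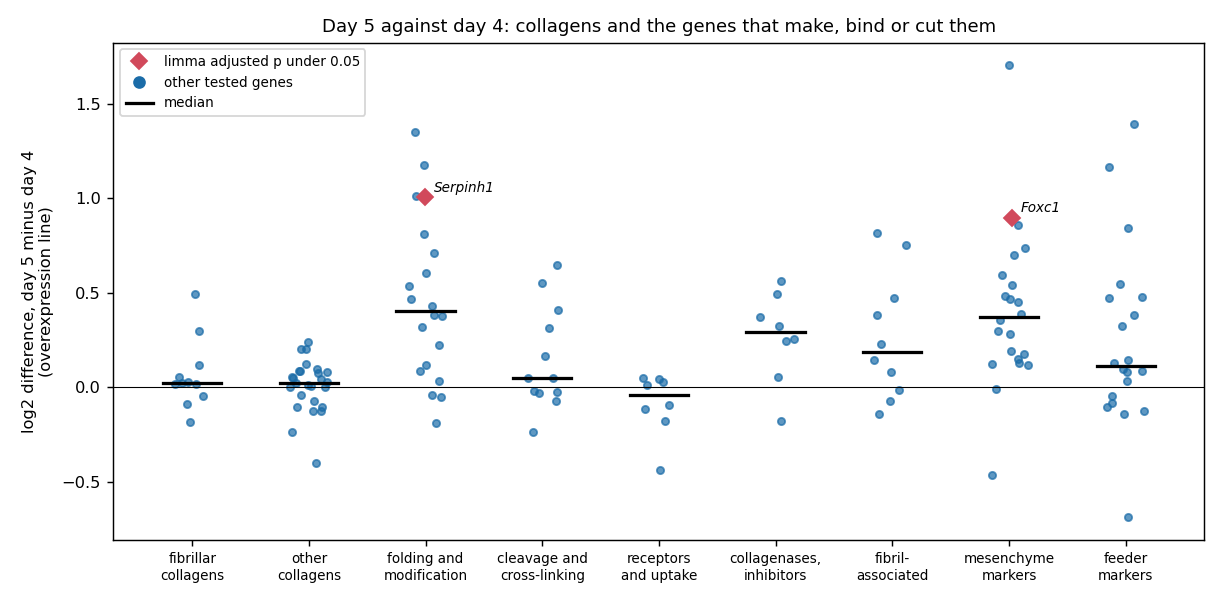
Log2 difference of day 5 minus day 4 in the overexpression line for each tested gene of the collagens and of 7 further gene lists, with list medians as black bars and genes called by limma as red diamonds. The collagen medians lie near 0, and those of folding and modification and of mesenchyme markers near 0.4.

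Mesenchyme and feeder fibroblast markers are read beside the collagens. Of 22 tested mesenchyme markers, 20 were higher on day 5 (median 0.37), against 49.8% of all tested genes. The forkhead factor Foxc1 was called and rose by 0.90 ± 0.12 (limma adjusted p = 0.0212). That call was lost without any 1 of 6 of the 12 arrays, in the overexpression-line arrays alone and without both day 5 replicate 2 arrays. The related Foxf1 differed by 1.70 ± 0.42 (limma adjusted p = 0.105) and read 9.68 and 10.00 in the day 5 replicate 2 arrays against 8.59 and 8.12 in replicate 1. Both replicate 2 arrays lay above both replicate 1 arrays, the order seen for Col1a1, in 15 of 22 mesenchyme markers (34.5% of all tested genes). They lay below them in 1, the cadherin Cdh2 (32.4% of all tested genes). For feeder markers these counts were 6 and 9 of 20, against the same shares. The summed level of the mesenchyme list was 17568 in replicate 2 and 18247 in replicate 1 without dox, and 18936 and 16910 with it. The list's mean log2 level was 8.62 in replicate 2 and 8.46 in replicate 1 without dox, and 8.71 and 8.31 with it. The replicate order was not particular to mesenchyme. Pluripotency markers also had a higher mean log2 level in replicate 2 (10.74 without dox, 10.80 with it) than in replicate 1 (10.27 and 10.45). Primitive streak markers had a lower one in replicate 2 (9.32 and 9.25) than in replicate 1 (10.12 and 10.04). Between the lines, 15 of 22 mesenchyme markers were lower in the knockdown line (53.1% of all tested genes were higher there). Of these, the repressor Snai1 at -1.58 ± 0.21 (limma adjusted p = 0.0202) and the cadherin Cdh11 at -0.82 ± 0.13 (limma adjusted p = 0.0433) were called. The summed linear level of the mesenchyme list was 8735 to 11565 in the 6 knockdown-line arrays, 14376 and 14848 in the day 4 arrays and 16910 to 18936 in the day 5 arrays of the overexpression line. With dox, 14 of these 22 markers were higher and 8 lower in the knockdown line, and 9 higher and 13 lower in the overexpression line, with none called (limma; 0 had an unadjusted p under 0.05 in either line).

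Feeder markers, of which 25 of 30 had a probe set and 20 passed the filter, summed to 7768 to 15700 in knockdown-line controls and 8435 to 13682 with dox. In the overexpression line they summed to 11920 and 13726 on day 4 and to 16960 to 17718 on day 5. Of the 20, 14 were higher on day 5, led by the smooth muscle actin gene Acta2 at 1.39 ± 0.44 and the galectin gene Lgals1 at 1.16 ± 0.27 (limma adjusted p = 0.180 and 0.0826). Between the lines 11 were higher and 9 lower in the knockdown line, and the growth arrest gene Gas1 was called lower at -1.59 ± 0.21 (limma adjusted p = 0.0176). Dcn, Lum and Thbs2 stand in both the feeder and the fibril-associated list. The fibroblast matrix genes Postn (5.86 to 6.40) and Lum (4.84 to 6.25) were below the filter in mean level, and below the 95th percentile of the olfactory receptor genes in every array. Most of the list, 20 of 25 measured genes, passed the filter, among them Acta2 (9.43 to 11.76) and Lgals1 (10.34 to 12.18). The part of mesenchyme or of feeder RNA in the collagen I and collagen V differences was not tested.

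Of the remaining marker lists, 0 of 7 cartilage and notochord markers were higher with dox in the knockdown line (median -0.07), and Shh, a notochord signal, was called higher on day 5 at 0.80 ± 0.14 (limma adjusted p = 0.0402). Of 20 tested endoderm markers, 17 were higher on day 5 (median 0.71) and 15 were higher in the knockdown line than in the overexpression line (median 0.33), with none called. Of 10 TGF-beta pathway genes, Tgfb1, whose product induces collagen synthesis in fibroblasts, was called lower in the knockdown line at -1.51 ± 0.25 (limma adjusted p = 0.0438). Its levels were 8.37 to 9.33 in the knockdown line and 10.22 to 10.90 in the overexpression line, with no overlap. Of 9 primitive streak markers, 8 were lower in the knockdown line (median -1.98, 2 called, the mesoderm regulator Mesp1 and the homeobox gene Evx1), and of 10 pluripotency markers 8 were higher (median 0.57, 0 called by limma, 3 with an unadjusted p under 0.05). On day 5 the pluripotency factor Pou5f1 was called and fell by 0.59 on the log2 scale (SE 0.10; limma adjusted p = 0.0383). Calls between the lines depended on the arrays and the processing. With 1 array left out in turn, Cdh11 and Tgfb1 kept their call in 2 of 12 fits, Evx1 in 5, and Snai1, Gas1 and Mesp1 in 8. In these single-array fits the highest limma adjusted p of a gene ran from 0.388 (Mesp1) to 0.897. Without both knockdown replicate 3 arrays all 6 lost their call (limma adjusted p up to 0.0977 over the settings other than single arrays). Cdh11, Tgfb1 and Evx1 also lost it without both day 5 replicate 2 arrays, and Cdh11 and Tgfb1 on the unnormalized values and with no filter. Between the days, Shh kept its call in 3 and Pou5f1 in 4 of 12 such fits. Both lost it with no filter, in the overexpression-line arrays alone and without both day 5 replicate 2 arrays, and Pou5f1 also with median centring.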

How the data were processed

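RNA from embryoid bodies was hybridised to Affymetrix mouse gene arrays, and 12 arrays in 6 groups were used. The authors deposited linear intensity values, 1 per probe set and array. How they summarised and normalized them is not stated in the labels. Deposited means per array spanned 677.3 to 696.6, and medians 145.3 to 182.2. Values were taken as log2(intensity + 1), which understates changes of dim genes, and quantile normalized over 35512 probe sets, of which 21789 had 1 gene symbol, 1621 several and 12102 none. Limma 3.58.1 in R 4.3.3 fitted a baseline for each line and day and 1 dox effect per line, without a replicate block, with 7 residual and 3.5 prior degrees of freedom. A gene was called where its p, adjusted over 15950 tested genes by Benjamini and Hochberg's method, was under 0.05. The steps were tested on simulated arrays.

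Genes described array by array are the tested fibrillar genes, called collagens and the 6 other collagens with the largest range. Named beside them are the 2 largest differences in each direction of a contrast and, of other lists, called genes and the 2 largest differences. Genes outside this rule (Col26a1, Col23a1, Col10a1, Col6a4, Col6a3, members of counts of up to 5, and Postn, Lum and the list overlaps) were named after their values were seen. Collagens and lists were chosen with earlier results of these data known. Of the listed genes, 11 without their own probe set are not analysed here. Alternatives were another normalization, pseudocount 16, other filters, means over probe sets, single-line fits, array weights, a replicate block and leaving out arrays.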

Additional observations from a re-analysis of the deposited data

Results flagged for a closer look

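For 3 collagens of the short-chain and collagen VI groups the dox difference had opposite signs in the lines, lower with dox in all 3 knockdown replicates and higher in all 3 overexpression replicates. Col10a1, the collagen of hypertrophic cartilage, differed between the dox effects by -0.292 (log2, knockdown minus overexpression; SE 0.16). Col6a4, a collagen VI chain, differed by -0.214 (SE 0.15), and Col8a2 by -0.406 (SE 0.20). The mean levels of Col10a1 (6.99) and Col6a4 (7.04) lay below the background reading of 7.11, and that of Col8a2 (7.85) lay above it. None of these differences was called by limma (adjusted p = 1 each). The pattern was seen in 3 of 37 collagens and in 2.46% of all tested genes. Much of the Col8a2 difference came from knockdown replicate 3, at -0.74 against -0.08 and -0.02 in the other replicates.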

How the results depend on the processing

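Of 1006 single-gene values under 25 alternatives, 37 had the other sign than reported, and the cause was not tested. With 1 array left out, the knockdown dox differences ranged from -0.0744 to 0.00684 for Col1a1, -0.220 to 0.0468 for Col1a2, -0.0203 to 0.310 for Col6a2 and -0.225 to 0.111 for Col18a1. The overexpression dox differences ranged from -0.178 to 0.308 for Col1a1, -0.0515 to 0.134 for Col1a2, -0.0506 to 0.00774 for Col5a1 and -0.227 to 0.446 for Col18a1. The difference of dox effects for Col6a2 ranged from -0.0806 to 0.299. Day differences ranged from -0.270 to 0.0970 for Col3a1 and -0.0217 to 0.0519 for Col5a1. Line differences ranged from -0.164 to 0.197 for Col1a2, -0.0850 to 0.295 for Col3a1 and 0.112 to 0.268 for the median of the other collagens. Median centring gave 0.00524 for Col1a1 and 0.0113 for Col18a1 in the knockdown line, and unnormalized values gave 0.00567 for Col1a2 between the lines. Without the day 4 overexpression arrays the difference of dox effects for Col6a2 was -0.0806. Array weights called 1 collagen between the days and 2 between the lines, counts without a share of all tested genes beside them. They moved the difference median of the other collagens to -0.0674. They gave -0.0162 for Col6a2 (knockdown dox), -0.144 for Col8a1, -0.00869 for Col3a1, -0.153 for Col1a2 and 0.0108 for Col5a1 (overexpression dox) and -0.0783 for Col3a1 (lines). After seeing the data, 2 alternatives were added. Without both knockdown replicate 3 arrays the knockdown medians were 0.0705 (fibrillar) and -0.0261 (other), the difference median of the other collagens was -0.0538, Col1a2 stood at 0.119 with dox and Col3a1 at -0.0850 between the lines. Without both day 5 replicate 2 arrays Col1a2 stood at -0.0369 with dox in the overexpression line and Col5a1 at -0.0285 between the days.

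As deviations from the group means, arrays of equal replicate number correlated at 0.60, 0.44 and 0.05 in the knockdown line. On day 5 of the overexpression line the value was 0.79. Each of these arrays correlated best with the array of its own number. In the knockdown line the 3 deviations of a group sum to 0, so these matches depend on each other. The day 5 deviations of replicates 1 and 2 mirror each other, so both pairs gave the same value, and its sign set the best match. With a replicate block limma called 0 collagens, and 6 of 37 had an unadjusted p under 0.05 for knockdown dox (12.2% of all tested genes), 3 for the difference (8.68%) and 0 for overexpression dox (3.59%). Days and lines could not be tested with the block. Most collagens were dim, and 3 arrays or fewer a group limit what could be detected.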
